A study of Mus musculus with 8 samples.

Results

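The genes of the IL-33, IL-1 and IL-18 receptors were followed through the immune cells of B16-OVA tumors treated by adoptive cell transfer (ACT). The set was chosen by symbol and holds 9 of the 27998 genes in the deposited gene list, namely Il33, Il1rl1, Il1rap, Il18r1, Il18rap, Il1r1, Il1r2, Il1rn and Myd88, and each was found once. CD45+ cells were profiled by 10x 5′ single-cell RNA-seq, from tumors of the ovalbumin-expressing melanoma line B16-OVA grown in C57BL/6 mice, sorted with enrichment for CD8+ cells, with the tumors of 5 mice pooled per condition. There were 8 libraries, 1 for each condition and day, so no difference between conditions could be tested, and the intervals given below cover counting error only.

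All treated mice received OT1 T cells, which carry a T cell receptor for an ovalbumin peptide, and no lymphodepletion is described for these groups. Days 5 and 12 after transfer were sampled for untransduced cells, day 12 for the products PD1d/IL-2v and PD1d/IL-33, and days 5, 12 and 26 for PD1d/IL-2v/IL-33. Tumors of mice that were non-treated gave a further library, labelled day 5. PD1d is a secreted PD-1 ectodomain fused to the Fc of human IgG4, IL-2v is an IL-2 variant that does not engage the α chain of the IL-2 receptor, and IL-33 was delivered as a secreted cytokine. PD1d/IL-2v/IL-33 ACT is a mixture, in equal parts, of OT1 cells carrying PD1d/IL-2v and OT1 cells carrying PD1d/IL-33. It is called orthogonal ACT from here on, and the other engineered products IL-2v ACT and IL-33 ACT. Transgenes were carried by a retroviral vector and the murine IL-33 sequence was codon optimized, so UMIs of the endogenous Il33 gene need not count the transgene. Transferred and host CD8+ cells were not separated here.

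IL-33, IL-18 and IL-1 belong to 1 cytokine family. IL-33 is an alarmin held in the nucleus of stromal and epithelial cells, and it signals through ST2, the product of Il1rl1, together with the accessory chain encoded by Il1rap. IL-18 is bound by the chain encoded by Il18r1 and signals once the chain encoded by Il18rap joins it. IL-1α and IL-1β signal through IL1R1 with the same Il1rap chain, Il1r2 encodes a decoy receptor that binds IL-1 without signalling, and Il1rn encodes a secreted antagonist. All signalling receptors of the family recruit the adaptor MyD88, which leads through IRAK kinases to NF-κB. In lymphoid tissue ST2 is known on type 2 helper T cells, type 2 innate lymphoid cells, mast cells and a share of regulatory T cells, and the IL-18 receptor on NK cells, type 1 T cells and memory CD8+ T cells.

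In the RefSeq annotation of GRCm38.p6, 5 of the 9 genes lie side by side on the plus strand of chromosome 1, in a cluster of 6 genes that covers 467 kb from 40084692 to 40551707. The order is Il1r2, Il1r1, Il1rl2 (a receptor for IL-36, not one of the 9), Il1rl1, Il18r1 and Il18rap. Il1rl1 ends at 40465418 and Il18r1 starts at 40465552, which leaves 133 bases between them, and 14507 bases separate Il18r1 from Il18rap. Il1rap lies on chromosome 16 (26581509 to 26730128), Il33 on chromosome 19 (29925113 to 29960718), Il1rn on chromosome 2 (24336860 to 24351491) and Myd88 on the minus strand of chromosome 9 (119335934 to 119340018). The 250 bases before annotated starts are printed for the 5 genes the results turn on, 4 of them from the cluster. Neighbours as close as Il1rl1 and Il18r1 were both counted in CD4 T cells, but only Il18r1 was also high in CD8 T and NK cells. The RefSeq table used holds 2 starts for Il1rl1, and both are shown, as entries 1 and 2. Both lie inside the gene as annotated, which starts at 40404864, and the Il1r2 start shown lies inside Il1r2, which starts at 40084692, so these 3 windows precede internal starts. The windows of Il18r1, Il18rap and Il1rn end 1 base before the gene as annotated, and for Il18r1 and Il1rn only that one of several starts is shown.
Il1rl1 entry 1 (chr1:40429320-40429569, plus strand): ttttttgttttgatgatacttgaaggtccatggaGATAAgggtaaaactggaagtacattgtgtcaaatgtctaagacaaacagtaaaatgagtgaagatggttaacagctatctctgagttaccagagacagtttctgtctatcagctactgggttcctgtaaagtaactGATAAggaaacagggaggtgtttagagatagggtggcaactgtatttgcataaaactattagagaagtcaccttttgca
Il1rl1 entry 2 (chr1:40439379-40439628, plus strand): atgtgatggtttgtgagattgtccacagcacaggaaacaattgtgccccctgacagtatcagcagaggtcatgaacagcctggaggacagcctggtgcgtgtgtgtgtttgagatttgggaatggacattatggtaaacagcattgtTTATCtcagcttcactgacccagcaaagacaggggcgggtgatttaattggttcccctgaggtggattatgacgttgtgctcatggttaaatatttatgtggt
Il18r1 (chr1:40465302-40465551, plus strand): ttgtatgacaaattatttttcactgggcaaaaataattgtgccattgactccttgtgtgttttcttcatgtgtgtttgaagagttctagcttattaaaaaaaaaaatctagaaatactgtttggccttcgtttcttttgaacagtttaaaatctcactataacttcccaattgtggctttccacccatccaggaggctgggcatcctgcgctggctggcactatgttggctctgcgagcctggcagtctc
Il18rap (chr1:40515112-40515361, plus strand): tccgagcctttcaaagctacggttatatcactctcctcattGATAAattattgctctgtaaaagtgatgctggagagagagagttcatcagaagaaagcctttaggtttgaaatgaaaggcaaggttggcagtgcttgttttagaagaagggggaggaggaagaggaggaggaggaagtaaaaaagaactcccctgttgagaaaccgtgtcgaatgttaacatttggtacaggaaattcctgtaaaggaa
Il1r2 (chr1:40085843-40086092, plus strand): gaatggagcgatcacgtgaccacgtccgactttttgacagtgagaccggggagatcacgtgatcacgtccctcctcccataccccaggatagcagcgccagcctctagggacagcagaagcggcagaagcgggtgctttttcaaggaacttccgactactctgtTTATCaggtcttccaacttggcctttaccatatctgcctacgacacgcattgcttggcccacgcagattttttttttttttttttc
Il1rn (chr2:24336610-24336859, plus strand): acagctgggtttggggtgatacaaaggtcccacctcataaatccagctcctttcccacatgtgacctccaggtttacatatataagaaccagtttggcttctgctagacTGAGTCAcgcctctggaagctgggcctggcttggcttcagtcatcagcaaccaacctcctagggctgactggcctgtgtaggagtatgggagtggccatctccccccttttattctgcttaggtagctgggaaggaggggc

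The capitals mark the letters of 3 motifs searched on both strands. They were GATAA (or TTATC on the other strand), the core of sites of GATA factors, TGANTCA, a site of AP-1 factors that reads the same on both strands, and TCACACC, a site of T-box factors. GATAA was present 2 times in the window of Il1rl1 entry 1, 1 time in that of entry 2, 1 time before Il18rap and 1 time before Il1r2, and 0 times before the Il18r1 start shown. The same letters are in 22.6% of 32851 windows of this length before annotated mouse starts. TGANTCA was present before Il1rn and in 6.75% of all windows. TCACACC was in none of the 6 windows printed, was present 1 time before Myd88, and is in 3.33% of all windows. No marked stretch overlaps another. A match describes these letters only.

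The matrix held 15700 barcodes, from 400 to 3700 per library, and 12828 cells passed a filter on genes, UMIs and ribosomal and mitochondrial shares, from 202 to 3655 per library with medians of 4403.5 to 7297 UMIs. Untransduced ACT at day 12 and non-treated tumors had 400 barcodes each and gave the fewest cells. Untransduced and orthogonal ACT at day 12 carry the same identifier in the deposited library records, as do IL-2v and IL-33 ACT at day 12. So do orthogonal ACT at day 26 and non-treated tumors. It was read here as a run, which no label states. The other comparisons set libraries with different identifiers against each other, so what the identifier stands for and condition cannot be told apart there. Pairs of libraries shared 0 to 17 barcode sequences, at most 0.75% of the smaller library. Cells were placed by raw UMIs of marker genes into gates, which gave 5049 CD8 T cells, 790 Foxp3- and 405 Foxp3+ CD4 T cells, 1841 NK cells, 1232 myeloid cells, 217 DCs and 134 B cells, while 3148 cells (24.5%) met no gate and 12 met more than 1. Genes that set a gate, such as Foxp3, Ncr1 or Cd79a, cannot check its name, so markers that no gate used were read over all libraries in CPM, which are UMIs of a gene scaled to a common library total. Il2ra, Ikzf2, Ctla4 and Tnfrsf4, genes of regulatory T cells, were at 503, 1028, 2395 and 1630 CPM in the Foxp3+ gate, Cd40lg at 289 CPM in the Foxp3- CD4 T gate, Klrb1c and Klre1 at 621 and 605 CPM in the NK gate, C1qb at 521 CPM in the myeloid gate and H2-Ab1 at 5261 CPM in the DC gate. H2-Ab1 was also at 2697 CPM in the myeloid and 2686 CPM in the B gate, so it does not tell DCs from these cells. C1qb had a UMI in 26.5% of the myeloid cells, so it checks only a part of that gate. In the Foxp3- CD4 T gate, Il2ra, Ikzf2, Ctla4 and Tnfrsf4 were at 177, 115, 429 and 496 CPM. Summed with Foxp3, they reached 2830 CPM in that gate of IL-2v ACT and 399 to 1625 CPM in the other libraries. What part regulatory T cells without a Foxp3 UMI have in the Foxp3- gate was not tested. The CD8 T markers on the list all set the gate. CPM were taken from the UMIs summed over the cells of a gate in a library, with exact 95% Poisson intervals. In such sums, fewer cells with a transcript and less transcript per cell cannot be told apart, so shares of cells with a UMI are given too, after each cell was thinned to 2000 UMIs.

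The 9 genes differed widely in how often they were counted. Il1rn gave 13141 UMIs in 1275 of the kept cells, Il18r1 7728 UMIs in 4278 cells, Il18rap 6693 UMIs in 4020 cells, Myd88 4886 UMIs in 3069 cells, Il1r2 3517 UMIs in 828 cells and Il1rl1 2859 UMIs in 652 cells. The IL-18 receptor chains and the adaptor were thus spread over many cells with few UMIs each, whereas Il1rn, Il1r2 and Il1rl1 were concentrated in fewer cells. Il1rap gave 591 UMIs in 543 cells, Il1r1 30 UMIs in 27 cells and Il33 11 UMIs in 10 cells.

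**Figure D1:**
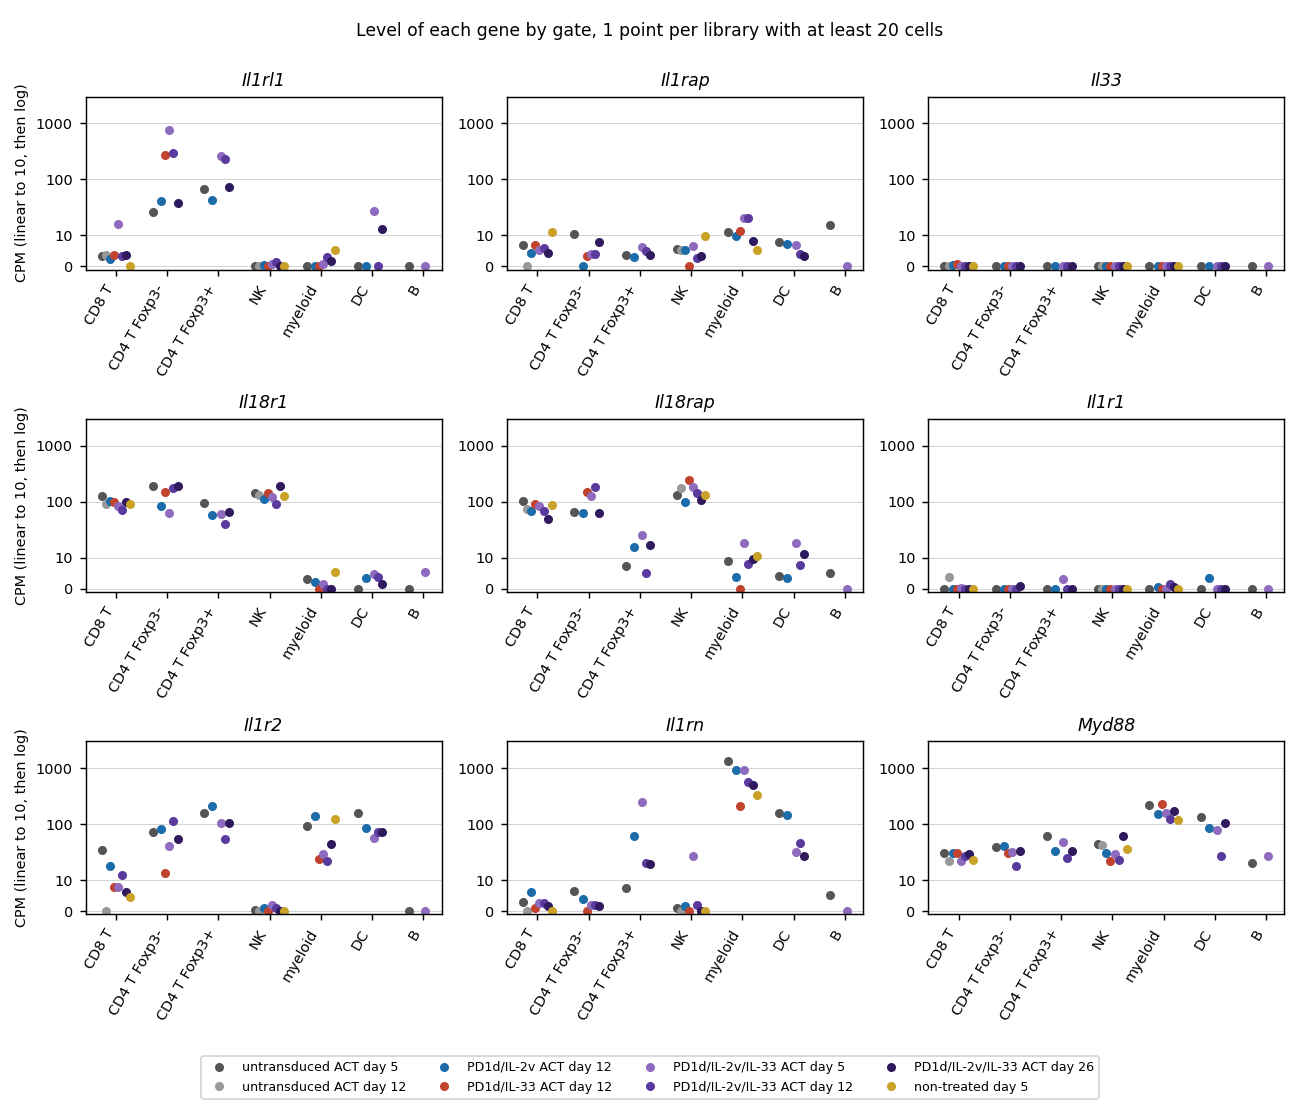
CPM of each of the 9 genes (y axis, linear to 10 and logarithmic above) in the 7 gates (x axis), with 1 point for each library with at least 20 cells in the gate and colors for the libraries. Il1rl1 points are high in both CD4 T gates. Il18r1 points are high in CD8 T, CD4 T and NK cells, and Il18rap points in CD8 T, Foxp3- CD4 T and NK cells. Il1rn and Myd88 points are highest in myeloid cells.

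Whether the order of the gates was shared by the libraries was tested within libraries, with a two-sided exact sign-flip permutation test on log2(CPM + 10) for every pair of gates that had at least 20 cells in 6 or more libraries. This gave 54 tests in 6 pairs of the CD8 T, Foxp3- CD4 T, NK and myeloid gates. At an adjusted p of 0.05, 0 of the 54 passed, and the lowest adjusted p of this permutation test was 0.0603 (Benjamini-Hochberg). With 6 to 8 libraries the smallest p the exact test can give is 0.03125, 0.015625 or 0.0078125, and 25 tests reached an unadjusted p of at most 0.05. In all 25 the direction was the same under every alternative processing in which the pair was repeated. When 10 cells were enough, a choice made after seeing the data that brings in Foxp3+ CD4 T cells and DCs, 50 of 135 tests passed. An exact permutation p of 0.0078125 has an adjusted p of 0.0603 among the 54 tests and 0.0364 among the 135. Passing thus depends on the family of tests, and a pass in the second is not stronger evidence than the same p in the first. Differences between gates are therefore given with their direction over libraries and with both exact p-values where a gene turns on them.

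Il33, the ligand itself, was hardly counted. Its 11 UMIs were all in CD8 T cells, with 3 in IL-2v ACT at day 12, 2 in IL-33 ACT at day 12, and 1, 2 and 3 in orthogonal ACT at days 5, 12 and 26. Untransduced ACT and non-treated tumors had 0. At 0.201 to 0.913 CPM where it was seen, the level does not separate the libraries that received IL-33 from IL-2v ACT, which was at 0.537 CPM.

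Of the gated cells, Il1rl1, which encodes the IL-33 receptor ST2, was counted mainly in CD4 T cells. By CPM, its level there was highest on days 5 and 12 in the libraries that received IL-33. Ungated cells held 1307 of its 2859 UMIs and are described further below. The 5′ counts do not separate the membrane form of ST2 from the secreted one. Among Foxp3- CD4 T cells it was at 25.8 CPM after untransduced ACT at day 5, 41.5 CPM after IL-2v ACT, 274 CPM after IL-33 ACT, and 763, 290 and 37.1 CPM after orthogonal ACT at days 5, 12 and 26. Untransduced ACT at day 12 and non-treated tumors had 0 UMIs, in 17 and 13 cells, where an exact interval still allows up to 52.6 and 58.0 CPM. The 2 libraries with IL-33 at day 12 and the 1 at day 5 lay above all others, and the day 26 library lay among those without IL-33. By cells, Il1rl1 UMIs were in 84 of 144 Foxp3- CD4 T cells of orthogonal ACT at day 5, 37 of 96 at day 12 and 22 of 307 at day 26, against 4 of 101 after untransduced ACT at day 5. After thinning the shares were 43.8%, 26.0%, 4.56% and 1.98%, in the same order as the CPM.

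Foxp3+ CD4 T cells had Il1rl1 in every library, with a similar order by CPM but not by share of cells. The levels were 68.4 and 54.3 CPM after untransduced ACT at days 5 and 12, 43.1 CPM after IL-2v ACT, 236 CPM after IL-33 ACT, 256, 230 and 72.6 CPM after orthogonal ACT at days 5, 12 and 26, and 12.9 CPM in non-treated tumors. Several of these rest on few cells, since IL-33 ACT had 15 cells of this gate with 21 Il1rl1 UMIs and non-treated tumors had 10 cells with 1. A single cell of orthogonal ACT at day 12 held 22 of that library's 46 UMIs. After thinning, cells with Il1rl1 made up 8.11% after untransduced ACT at day 5, 18.8% after untransduced ACT at day 12, 6.56% after IL-2v ACT, 20% after IL-33 ACT, 18.4%, 11.5% and 15.4% after orthogonal ACT at days 5, 12 and 26, and 10.0% in non-treated tumors. By this measure untransduced ACT at day 12 lay above orthogonal ACT at each of its days, and day 26 was not below day 12. These shares are of 16 cells after untransduced ACT at day 12, and of 38, 26 and 104 cells after orthogonal ACT. The libraries that received IL-33 were thus not set apart by the share of cells in this gate, though shares of so few cells cannot show that they are alike.

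In CD8 T cells Il1rl1 was near the limit of detection. It ranged from 0 to 3.69 CPM in 7 libraries and was 15.7 CPM in orthogonal ACT at day 5, where 68 UMIs lay in 21 cells and 17 of them in 1 cell. NK cells had at most 1.55 CPM and myeloid cells at most 5.33 CPM, B cells had 0 UMIs, and DCs had 0 to 27.7 CPM, the highest value being 12 UMIs in 1 cell. Over all libraries the thinned share of cells with Il1rl1 was 15.7% in Foxp3- and 11.6% in Foxp3+ CD4 T cells, 0.555% in CD8 T cells, 0.0543% in NK cells and 0.162% in myeloid cells. CD8 T cells were below Foxp3- CD4 T cells in 6 of 6 libraries, with a log2 difference of -3.17 ± 1.58 (SD, n = 6, exact permutation p = 0.03125, adjusted p = 0.0675), and above NK cells in 7 of 8, by 0.44 ± 0.36 (n = 8, exact permutation p = 0.015625, adjusted p = 0.0603). With 10 cells as the minimum, Foxp3+ CD4 T cells were above CD8 T cells in 8 of 8 libraries, with a log2 difference of CD8 T minus Foxp3+ CD4 T cells of -2.80 ± 1.04 (adjusted exact permutation p = 0.0364). The Foxp3- and Foxp3+ gates were not told apart, with 3 libraries one way and 5 the other (adjusted exact permutation p = 0.510).

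**Figure D2:**
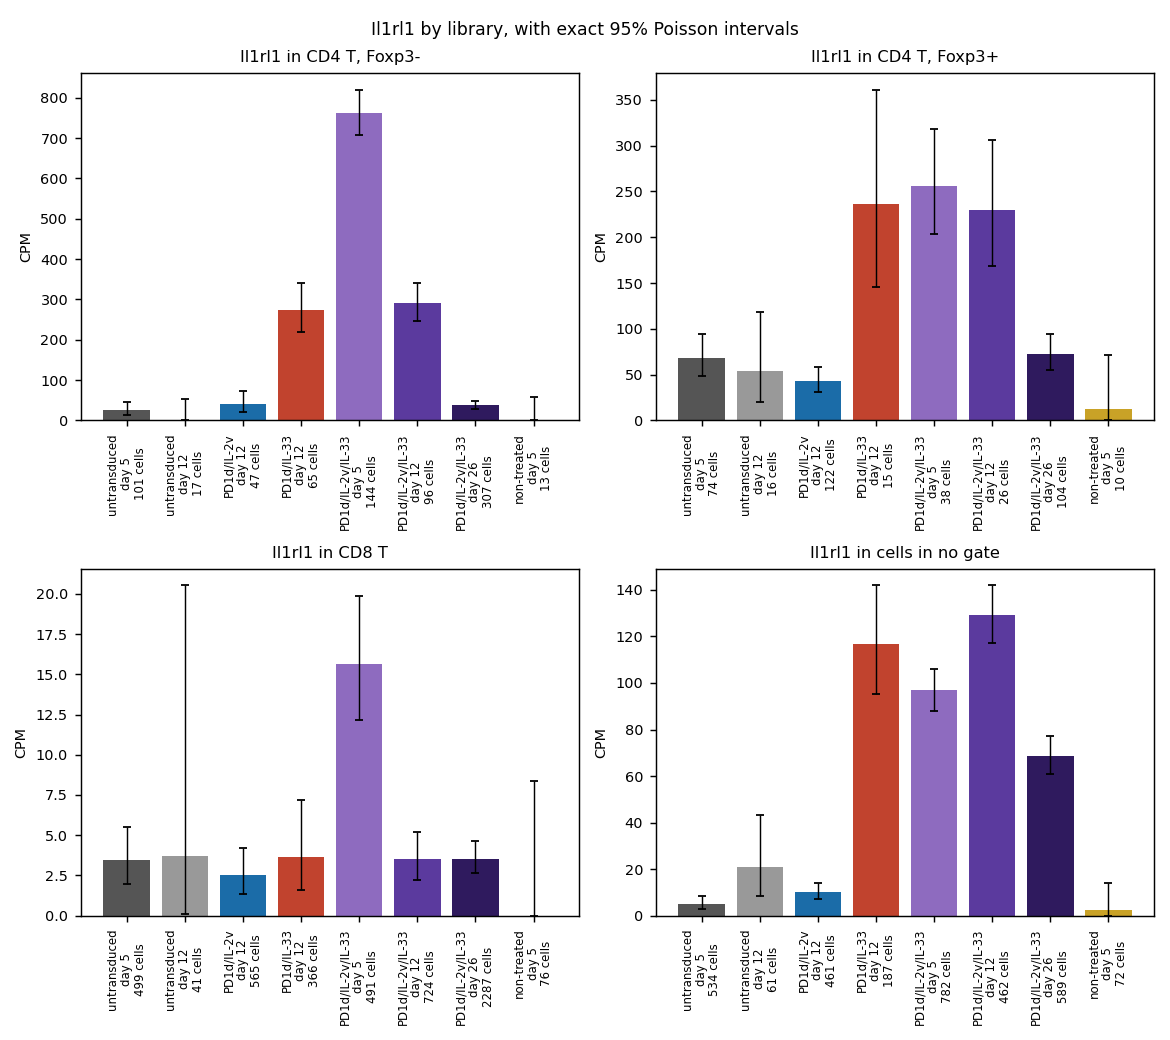
Il1rl1 CPM (y axis) in each of the 8 libraries (x axis, with the number of cells) in Foxp3- CD4 T, Foxp3+ CD4 T, CD8 T and ungated cells, with exact 95% Poisson intervals and a separate scale per panel. The Foxp3- CD4 T panel reaches 763 CPM in orthogonal ACT at day 5, and the CD8 T panel stays at or below 15.7 CPM.

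The accessory chain Il1rap was low everywhere. Of the CD8 T, Foxp3- CD4 T, NK and myeloid gates its level was highest in myeloid cells, at 5.33 to 20.6 CPM in the 7 libraries with at least 20 such cells, while CD8 T cells had 0 to 11.4 CPM and NK cells 0 to 9.77 CPM. Foxp3- CD4 T cells were below myeloid cells in 6 of 6 libraries, with a log2 difference of -0.67 ± 0.50 (exact permutation p = 0.03125, adjusted p = 0.0675). Foxp3+ CD4 T cells had 0 to 38.6 CPM, on 0 to 3 UMIs per library, and were not told apart from myeloid cells with 10 cells as the minimum (-0.19 ± 1.12, higher in 2 of 8, adjusted exact permutation p = 0.827). Foxp3- CD4 T cells held 22 Il1rap UMIs in 790 cells over all libraries, too few to tell whether its counts follow those of Il1rl1. In this gate of orthogonal ACT at day 5, Il1rap was at 4.13 CPM beside 763 CPM of Il1rl1. Transcript levels of 2 genes are compared here as UMIs, which the 5′ assay counts once per transcript.

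Il18r1 was shared by T and NK cells and nearly absent from myeloid cells. Il18rap was also low in myeloid cells, at 0 to 18.4 CPM in the 7 libraries with at least 20 such cells. With 10 cells as the minimum, Foxp3+ CD4 T cells were not told apart from myeloid cells in Il18rap (0.42 ± 0.93, adjusted exact permutation p = 0.388). Il18r1, which encodes the chain that binds IL-18, was at 71.8 to 127 CPM in CD8 T cells, 92.2 to 189 CPM in NK cells, 62.0 to 195 CPM in Foxp3- CD4 T cells and 39.9 to 127 CPM in Foxp3+ CD4 T cells. Myeloid cells had 0 to 8.33 CPM. Thinned shares over all libraries were 16.6%, 23.3%, 25.7% and 11.9% in the 4 lymphocyte gates in that order, against 0.162% of myeloid and 0.746% of B cells. Il18r1 was thus far above its background in every lymphocyte gate except B cells.

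Both chains were lower in CD8 T than in NK cells of every library. Neither difference passed the adjustment over the 54 tests. With the same exact p, both had an adjusted exact permutation p of 0.0364 among the 135 tests with 10 cells as the minimum. Il18r1 was lower in CD8 T than in NK cells in 8 of 8 libraries, with a log2 difference of -0.42 ± 0.25 (SD, n = 8, exact permutation p = 0.0078125, adjusted p = 0.0603). Il18rap, which encodes the accessory chain, was lower in 8 of 8, with a log2 difference of -0.86 ± 0.36 (n = 8, exact permutation p = 0.0078125, adjusted p = 0.0603). NK cells were above myeloid cells in Il18r1 in 7 of 7 libraries, by 3.58 ± 0.40, and in Il18rap in 7 of 7, by 3.12 ± 0.70, each with an exact permutation p of 0.015625. CD8 T and Foxp3- CD4 T cells were not told apart in Il18r1, with a difference of -0.43 ± 0.64 (n = 6, exact permutation p = 0.1875).

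The chains parted in Foxp3+ CD4 T cells. Il18rap was at 7.39 and 63.3 CPM after untransduced ACT at days 5 and 12, 15.8 CPM after IL-2v ACT, 11.2 CPM after IL-33 ACT, 25.3, 4.99 and 16.6 CPM after orthogonal ACT at days 5, 12 and 26, and 0 in non-treated tumors. In Foxp3- CD4 T cells of the same libraries it was at 64.5, 99.9, 64.1, 147, 127, 185, 61.9 and 94.4 CPM, above the Foxp3+ value in every library. With 10 cells as the minimum, that difference was 2.196 ± 1.06 on the log2 scale in 8 of 8 libraries (adjusted exact permutation p = 0.0364), while for Il18r1 it was 0.72 ± 0.66, also in 8 of 8 (adjusted exact permutation p = 0.0364). The log2 ratio of Il18r1 to Il18rap, each as CPM + 10, was 0.90 to 3.498 in Foxp3+ CD4 T cells, with a median of 1.62, and above 0 in 8 of 8 libraries. Its medians were 0.26 in Foxp3- CD4 T cells, 0.20 in CD8 T cells and -0.22 in NK cells. This ratio was looked at after the values were seen and was not tested.

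Il1r1, which encodes the signalling receptor for IL-1, was counted in 27 cells, with 11 UMIs in the gates, 18 in ungated cells and 1 in a cell that met more than 1 gate, and no level could be compared. Il1r2, the decoy, was counted in DCs, myeloid cells and Foxp3+ CD4 T cells. In the last it was at 157 and 172 CPM after untransduced ACT at days 5 and 12, 208 CPM after IL-2v ACT, 157 CPM after IL-33 ACT, 104, 54.9 and 104 CPM after orthogonal ACT at days 5, 12 and 26, and 51.5 CPM in non-treated tumors. DCs had 32.0 to 155 CPM, myeloid cells 8.33 to 141 CPM, Foxp3- CD4 T cells 0 to 115 CPM, CD8 T cells 0 to 34.3 CPM and NK cells at most 2.07 CPM.

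Among the T cell gates, Il1r2 was highest in Foxp3+ CD4 T cells in 7 of 8 libraries. CD8 T cells were below Foxp3- CD4 T cells in 6 of 6 libraries, with a log2 difference of -1.5003 ± 0.76 (n = 6, exact permutation p = 0.03125, adjusted p = 0.0675), and, with 10 cells as the minimum, below Foxp3+ CD4 T cells in 8 of 8, with a difference of -2.68 ± 0.84 (adjusted exact permutation p = 0.0364). Foxp3- were below Foxp3+ CD4 T cells in 7 of 8, and that difference did not pass (-1.62 ± 1.56, adjusted exact permutation p = 0.0620). Of the CD8 gate, the 76 cells with a Foxp3 UMI held 91 of 497 Il1r2 UMIs, at 143 CPM, against 10.4 CPM in the 4973 cells without one. They also had 45.5 CPM of Il1rl1 against 4.01 CPM. This split was made after the values were seen, and whether these cells are CD8 T cells or droplets with a CD4 T cell was not tested.

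Il1rn, the IL-1 receptor antagonist, was a gene of myeloid cells. It was at 1314 and 1898 CPM after untransduced ACT at days 5 and 12, 911 CPM after IL-2v ACT, 208 CPM after IL-33 ACT, 915, 568 and 499.5 CPM after orthogonal ACT at days 5, 12 and 26, and 336 CPM in non-treated tumors. CD8 T cells had at most 6.09 CPM and Foxp3- CD4 T cells at most 6.45 CPM, with log2 differences from myeloid cells of -5.59 ± 0.77 (7 of 7 libraries, exact permutation p = 0.015625, adjusted p = 0.0603) and -5.69 ± 0.71 (6 of 6 libraries, exact permutation p = 0.03125, adjusted p = 0.0675). Pooled over all libraries, myeloid cells split by C1q, a product of macrophages, had 896 CPM in the 217 cells with at least 10 C1q UMIs and 876 CPM in the 1015 others. Of the DCs, the 78 with UMIs of Fscn1, Ccr7 and Ccl22 summing to at least 3, which mark mature DCs, had 140 CPM of Il1rn, and the 45 with Xcr1 or Clec9a, which mark cross-presenting DCs, had 0 UMIs. These splits were chosen after the values were seen. Their pools mix libraries with different Il1rn levels, so they do not show whether the subsets are alike or differ within a library.

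Il1rn was also counted in Foxp3+ CD4 T cells. It was at 250 CPM in orthogonal ACT at day 5, but 47 of those 79 UMIs were in 1 cell, and at 112 CPM in IL-33 ACT (10 UMIs in 2 of 15 cells) and 62.1 CPM in IL-2v ACT (59 UMIs in 12 of 122 cells). In the other libraries it was at 0 to 19.96 CPM. The 8 myeloid markers summed to at most 79 CPM in this gate in any library, but 1 of them, Csf1r, is held at 0 by the gate. A sum over the gate also does not describe the 1 cell with 47 UMIs. What part myeloid transcripts have in this Il1rn was not tested. Foxp3- were below Foxp3+ CD4 T cells in 7 of 8 libraries and level in 1, with a log2 difference of -1.76 ± 1.60 (10 cells as the minimum, adjusted exact permutation p = 0.0422).

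Myd88, the shared adaptor, was counted in every gate. Myeloid cells had 117 to 226 CPM, DCs 25.7 to 167 CPM, NK cells 21.7 to 60.9 CPM, Foxp3- CD4 T cells 0 to 41.5 CPM and CD8 T cells 22.1 to 31.1 CPM. CD8 T cells were below myeloid cells in 7 of 7 libraries, with a log2 difference of -2.2005 ± 0.27 (n = 7, exact permutation p = 0.015625, adjusted p = 0.0603). CD8 T cells and NK cells were not told apart (-0.29 ± 0.42, n = 8, exact permutation p = 0.117).

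Between conditions, 7 comparisons were made within each gate, as a log2 ratio of CPM + 10 with an interval from the Poisson limits of both libraries, and a ratio of at least 2-fold was counted as a call. They were, at day 12, IL-33 against IL-2v ACT, orthogonal against IL-2v ACT, and orthogonal against IL-33 ACT; then orthogonal against untransduced ACT at day 5, orthogonal ACT at day 12 against day 5 and at day 26 against day 12, and untransduced ACT against non-treated tumors at day 5. Comparisons that share a library are not independent of each other. With at least 50 cells in both libraries and 10 UMIs for the gene, 119 values in 22 comparisons could be formed, and 16 (13.4%) were past 2-fold, 8 higher and 8 lower.

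Of all genes with 10 UMIs in CD8 T cells, 2.44%, 1.72%, 1.38%, 2.5%, 0.566%, 2.6% and 1.67% were past 2-fold in the 7 comparisons in that order, and of the 9 genes only Il1r2 was, in 2 of them. In NK cells the shares of all genes were 5.71%, 3.05%, 4.05%, 4.26%, 0.781%, 10.7% and 2.2%, and 4 values of the set were past 2-fold. In myeloid cells they were 12.5%, 5.78%, 11%, 5.25%, 1.67%, 4.01% and 8.34%, where the first, orthogonal against IL-33 ACT and the last rest on fewer than 50 cells in a library, and 2 values with at least 50 cells on both sides were past 2-fold, both of Il1r2. In Foxp3- CD4 T cells, 4 comparisons had enough cells, orthogonal against IL-33 ACT, against untransduced ACT at day 5, day 12 against day 5 and day 26 against day 12. There 5.81%, 12.8%, 3.7% and 7.29% of all genes were past 2-fold, and 1, 2, 3 and 2 of the 5 or 6 genes of the set that could be compared. In Foxp3+ CD4 T cells, with 10 to 122 cells per library, the shares of all genes were 26.4%, 13.4%, 16.4%, 13.7%, 8.65%, 12.7% and 19.4%, so calls in this gate are frequent for any gene.

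In Foxp3- CD4 T cells Il1rl1 had the largest ratio of the set. Orthogonal ACT at day 5 was above untransduced ACT by a log2 ratio of 4.43 (3.80 to 5.06). The day 12 library was below day 5, at -1.36 (-1.62 to -1.12), and day 26 below day 12, at -2.67 (-3.07 to -2.27). Orthogonal and IL-33 ACT at day 12, at 290 and 274 CPM, were not past 2-fold from each other.

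By CPM, Foxp3+ CD4 T cells had a similar order of Il1rl1 with smaller ratios, an order that the thinned shares given above did not keep. IL-33 ACT was above IL-2v ACT by 2.21 (1.46 to 2.91), orthogonal above IL-2v ACT by 2.17 (1.61 to 2.72), and orthogonal above untransduced ACT at day 5 by 1.76 (1.24 to 2.29). The second of these was under 2-fold, at 0.85, under stricter gates and, at 0.66, as a thinned share, and it includes the cell with 22 of 46 UMIs. The stricter gates ask for at least 4 CD3 UMIs and at least 2 UMIs each of Cd4 and Foxp3. Orthogonal and IL-33 ACT at day 12 differed by -0.04 (-0.77 to 0.73), and days 12 and 5 by -0.15 (-0.68 to 0.36). Day 26 was below day 12 by -1.54 (-2.06 to -0.99), but above it by 0.36 as a thinned share or under the stricter gates, so the direction depends on the measure. The stricter gates left 10 cells at day 12 and 56 at day 26, and which of their demands moved the ratio was not tested. Untransduced ACT was above non-treated tumors by 1.78 (-0.11 to 2.996), an interval that includes 0. In CD8 T cells the ratio of orthogonal to untransduced ACT at day 5 was 0.93, under 2-fold.

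In CD8 T cells the IL-18 receptor varied less than 2-fold across all 7 comparisons. Il18r1 was at 127 and 92.2 CPM after untransduced ACT at days 5 and 12, 103 CPM after IL-2v ACT, 98.6 CPM after IL-33 ACT, 83.6, 71.8 and 97.0 CPM after orthogonal ACT at days 5, 12 and 26, and 90.9 CPM in non-treated tumors. Orthogonal ACT was below IL-2v ACT by a log2 ratio of -0.47 (-0.63 to -0.31), below IL-33 ACT by -0.41 (-0.62 to -0.20) and, at day 5, below untransduced ACT by -0.55 (-0.72 to -0.38). These were the lowest Il18r1 values of their days in the CD8 gate. Day 26 was above day 12 by 0.39 (0.26 to 0.52).

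Il18rap in CD8 T cells did not follow Il18r1 in each comparison. It was at 102 and 73.7 CPM after untransduced ACT, 69.5 CPM after IL-2v ACT, 89.9 CPM after IL-33 ACT, 84.5, 67.4 and 48.8 CPM after orthogonal ACT at days 5, 12 and 26, and 86.4 CPM in non-treated tumors. IL-33 ACT was above IL-2v ACT by 0.33 (0.10 to 0.55), and day 26 of orthogonal ACT was below day 12 by -0.40 (-0.54 to -0.25), where Il18r1 went the other way. The 191 CD8 T cells with at least 2 Gzmc UMIs, of which 117 were from orthogonal ACT at day 12, had 68.9 CPM of Il18r1 and 66.6 CPM of Il18rap, against 98.8 and 68.0 CPM in the 4733 cells without Gzmc, a cytotoxic granzyme. Within orthogonal ACT at day 12, Il18r1 was at 45.02 CPM in Gzmc cells and 83.3 CPM in cells without. Il1rl1 was at 1.98 CPM in the Gzmc cells, 6 UMIs in 5 cells. The split by Gzmc was made after the values were seen.

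In the Foxp3- CD4 T and NK gates some ratios of the IL-18 receptor were past 2-fold. Il18r1 in Foxp3- CD4 T cells was below untransduced ACT in orthogonal ACT at day 5, by -1.47 (-1.90 to -1.03), and above day 5 at day 12 by 1.36 (0.93 to 1.80). Il18rap in the same gate was lower at day 26 than at day 12 by -1.44 (-1.84 to -1.04). In NK cells Il18rap was at 242 CPM after IL-33 ACT (83 cells) and 98.1 CPM after IL-2v ACT (443 cells), a log2 ratio of 1.22 (0.88 to 1.54), and at 186 CPM after orthogonal and 135 CPM after untransduced ACT at day 5. The NK levels of Il18r1 in these 4 libraries were 141, 113, 120 and 140 CPM. Il18rap in the 204 NK cells of orthogonal ACT at day 12 was above IL-2v ACT by 0.52 and below IL-33 ACT by -0.70, both under 2-fold.

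**Figure D3:**
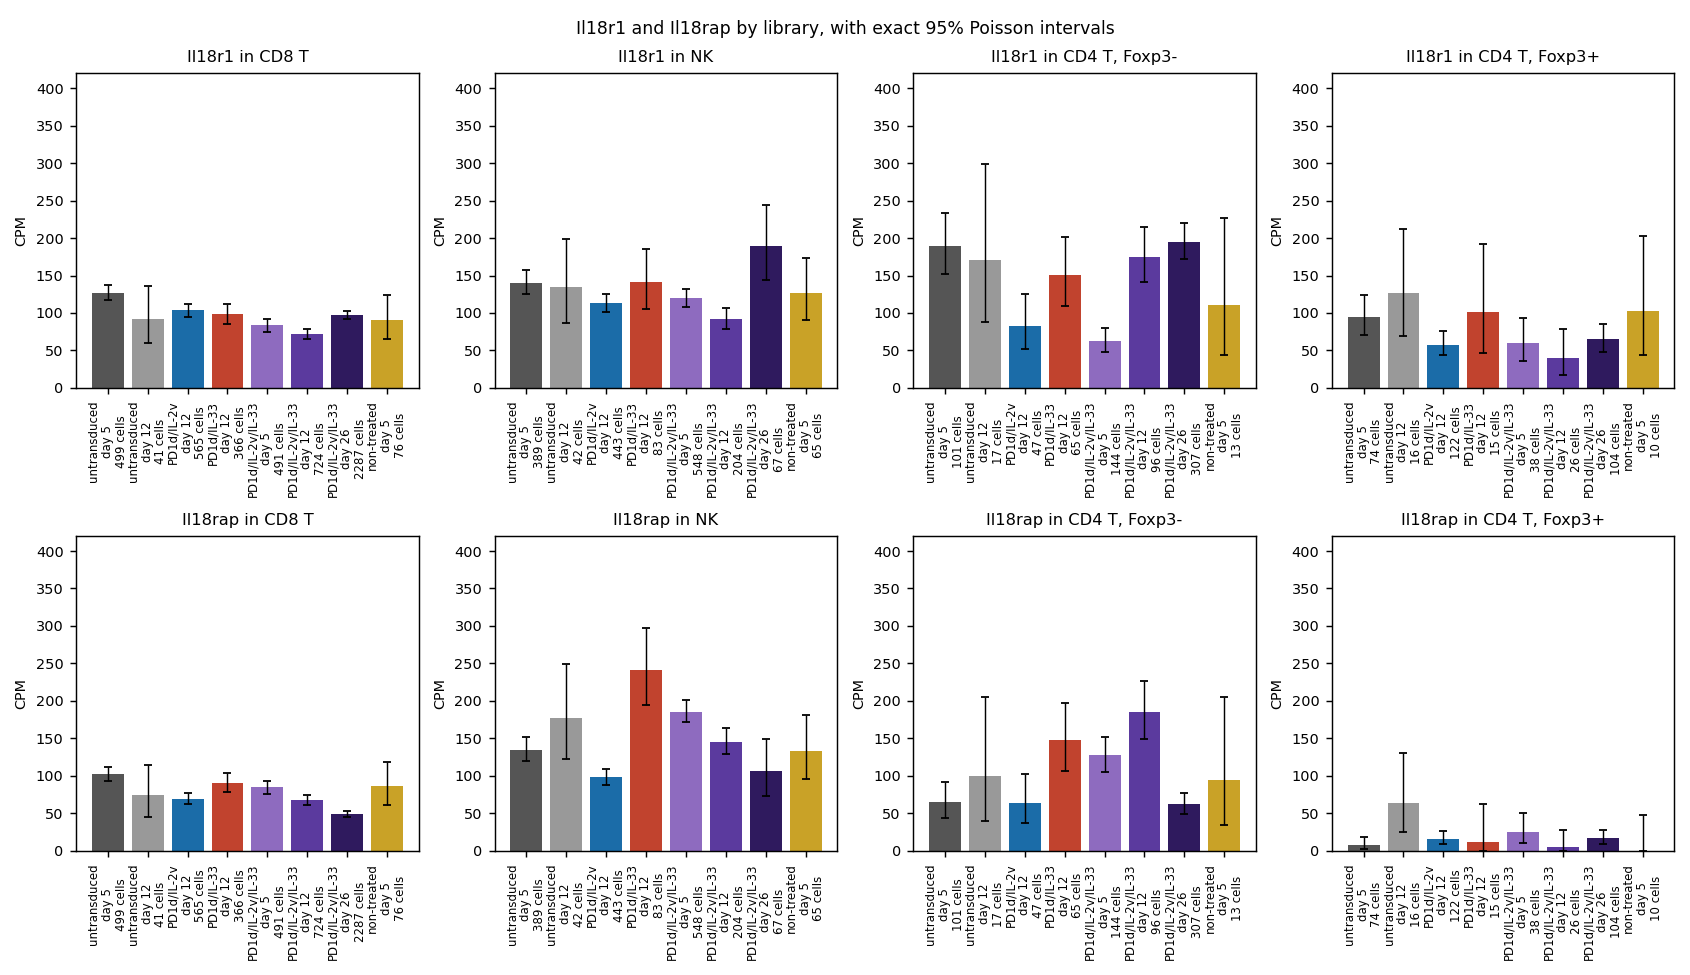
CPM (y axis, 1 scale for all panels) of Il18r1 in the upper row and Il18rap in the lower row, in each of the 8 libraries (x axis, with the number of cells), for CD8 T, NK, Foxp3- CD4 T and Foxp3+ CD4 T cells, with exact 95% Poisson intervals. Il18rap bars are low in Foxp3+ CD4 T cells, where the highest is 63.3 CPM in 16 cells, while Il18r1 bars of the same cells stand at 39.9 to 127 CPM.

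By CPM, the antagonist and the decoy were lower in myeloid cells of the libraries that received IL-33 at day 12 than after IL-2v ACT. Il1rn was lower in IL-33 than in IL-2v ACT, at -2.08 (-2.58 to -1.62), with 28 and 273 cells, and lower in orthogonal ACT, at -0.67 (-0.83 to -0.51), with 93 cells. As a thinned share of cells the second ratio was 0.41, since 58.1% of myeloid cells had an Il1rn UMI after orthogonal ACT and 43.2% after IL-2v ACT. Untransduced ACT was above non-treated tumors by 1.94 (1.59 to 2.31) and above orthogonal ACT at day 5, whose ratio was -0.52 (-0.59 to -0.44). As thinned shares the first of these was 0.84, under 2-fold, and the second was 0.28, in the other direction. Orthogonal ACT at day 12 was above IL-33 ACT by 1.41 (0.93 to 1.92). The 1898 CPM of untransduced ACT at day 12 came from 13 cells, 1 of which held 157 of the 228 UMIs.

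Il1r2 in myeloid cells was at 92.5 and 8.33 CPM after untransduced ACT at days 5 and 12, 141 CPM after IL-2v ACT, 23.7 CPM after IL-33 ACT, 28.8, 21.9 and 44.2 CPM after orthogonal ACT, and 123 CPM in non-treated tumors. Orthogonal ACT was lower than IL-2v ACT at day 12, at -2.24 (-2.79 to -1.67), and lower than untransduced ACT at day 5, at -1.40 (-1.68 to -1.11). Under stricter gates the first was -1.26, and as a thinned share the second was -0.75, under 2-fold. IL-33 ACT was lower than IL-2v ACT too, at -2.16 (-3.20 to -1.08), with 4 UMIs in 1 cell. Single cells held 83 of 387 UMIs in IL-2v ACT and 46 of 206 in untransduced ACT at day 5. The 4 neutrophil markers, which include S100a8 and S100a9, summed to 1099 CPM in the myeloid gate of IL-2v ACT, against 65.3 CPM after IL-33 ACT and 152 CPM after orthogonal ACT at day 12, with 58.6 to 701 CPM in the other libraries. The 8 myeloid markers summed to 4940 CPM in orthogonal ACT at day 5 and 9623 to 17741 CPM elsewhere. What part these differences in makeup have in the levels of Il1rn and Il1r2 was not tested.

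**Figure D4:**
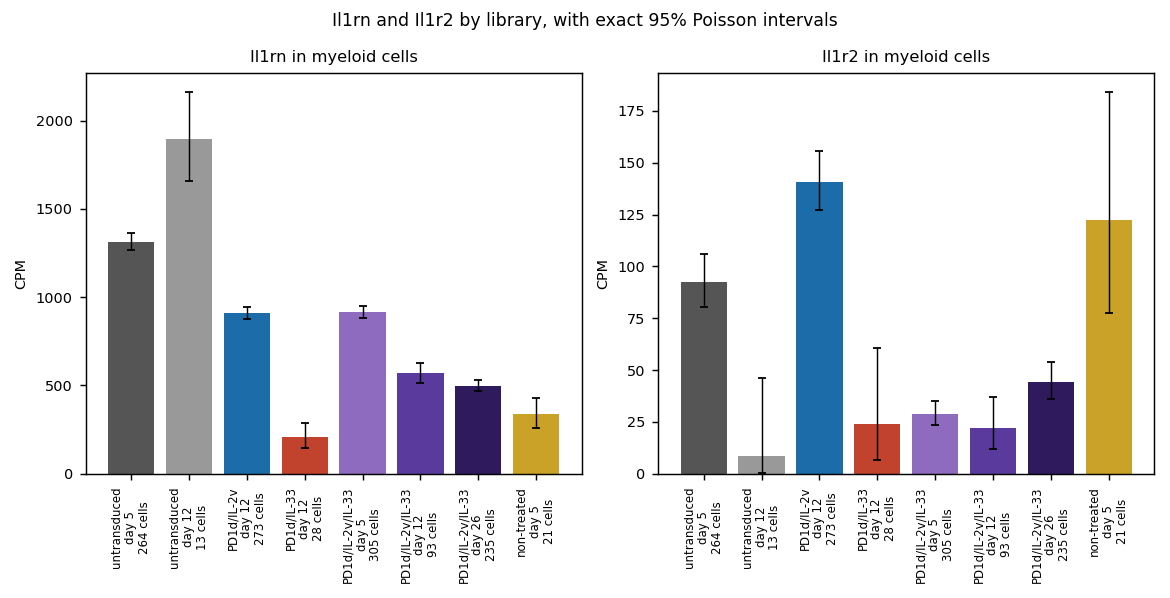
CPM (y axis) of Il1rn and Il1r2 in the myeloid gate of each of the 8 libraries (x axis, with the number of cells), with exact 95% Poisson intervals. Il1rn is lowest in IL-33 ACT at 208 CPM and Il1r2 is highest in IL-2v ACT at 141 CPM.

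The other values past 2-fold were of Il1r2 in T cells and of Il1rn and Myd88 in NK cells. Il1r2 in CD8 T cells was at 34.3 CPM after untransduced ACT at day 5, 7.83 CPM after orthogonal ACT (-1.31, -1.58 to -1.03) and 4.55 CPM in non-treated tumors (1.61, 0.73 to 2.10). In Foxp3- CD4 T cells it was at 115 CPM in orthogonal ACT at day 12, above IL-33 ACT by 2.42 (1.43 to 3.27) and above day 5 by 1.28 (0.77 to 1.79). Il1rn in NK cells was at 26.6 CPM in orthogonal ACT at day 5 and at most 2.06 CPM elsewhere, but 46 of the 90 UMIs were in 1 cell. Neutrophil markers summed to 184 CPM in that library's NK gate against 0 to 35.8 CPM in the others, and their part in this Il1rn was not tested. Myd88 in NK cells was higher at day 26 of orthogonal ACT than at day 12 by 1.10 (0.42 to 1.74), with 19 UMIs.

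The Foxp3- CD4 T cells with an Il1rl1 UMI were then compared with those without, in the 4 libraries with at least 22 such cells. Because they were chosen by Il1rl1, and because a deeper cell is more likely to show any UMI (median 5859 against 3934 UMIs), the values are a description. Gata3, the master factor of type 2 helper cells, was at 889 CPM with and 164 CPM without Il1rl1 after IL-33 ACT, 850 and 287 CPM after orthogonal ACT at day 5, 496 and 133 CPM at day 12, and 447 and 96.6 CPM at day 26. Areg, which encodes the tissue repair factor amphiregulin, was at 2217 and 92.9 CPM, 6956 and 646 CPM, 1468 and 554 CPM, and 612 and 32.8 CPM in the same order. Both genes were higher in cells with Il1rl1 in all 4 libraries.

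The type 2 cytokines followed. Il5 was at 1510 CPM with and 0 without Il1rl1 after IL-33 ACT, and at 3556 and 74.4 CPM, 289 and 190 CPM, and 214 and 1.68 CPM after orthogonal ACT at days 5, 12 and 26. Il13 was at 1898 and 0 CPM, 5522 and 176 CPM, 709 and 604 CPM, and 68.1 and 13.4 CPM. At day 12 of orthogonal ACT the gap in Il5 and Il13 was thus small. Ifng, the type 1 cytokine, was lower with Il1rl1 in 3 libraries (77.7 against 290 CPM after IL-33 ACT, 116 against 250.0 CPM at day 12 and 9.72 against 119 CPM at day 26) and higher at day 5 of orthogonal ACT, at 570 against 176 CPM. The day 26 levels with Il1rl1 come from 22 cells, and that of Ifng is near the limit of detection.

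Il18r1, the neighbour of Il1rl1 on chromosome 1, was lower in the cells with Il1rl1 in all 4 libraries. It was at 51.8 and 213 CPM after IL-33 ACT, 34.2 and 125 CPM, 96.2 and 225 CPM, and 175 and 197 CPM after orthogonal ACT at days 5, 12 and 26, the last pair lying close together. Of the genes listed for mast cells and basophils, Mcpt8, Cpa3, Gata2, Ms4a2 and Fcer1a were at 0 UMIs in the whole Foxp3- CD4 T gate. This includes the 175 cells with Il1rl1 and is not particular to them. Kit, the other gene of that list, had 29 UMIs in the gate (7.37 CPM). Summed over the gate, the 8 genes of the type 2 innate lymphoid list, which share Gata3, Areg, Il5 and Il13 with type 2 helper cells, were at 12869 CPM in orthogonal ACT at day 5, 3292 CPM after IL-33 ACT, 2730 CPM at day 12 of orthogonal ACT and 656 to 1289 CPM elsewhere. The part that other cells of this kind have in the gate was not tested.

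**Figure D5:**
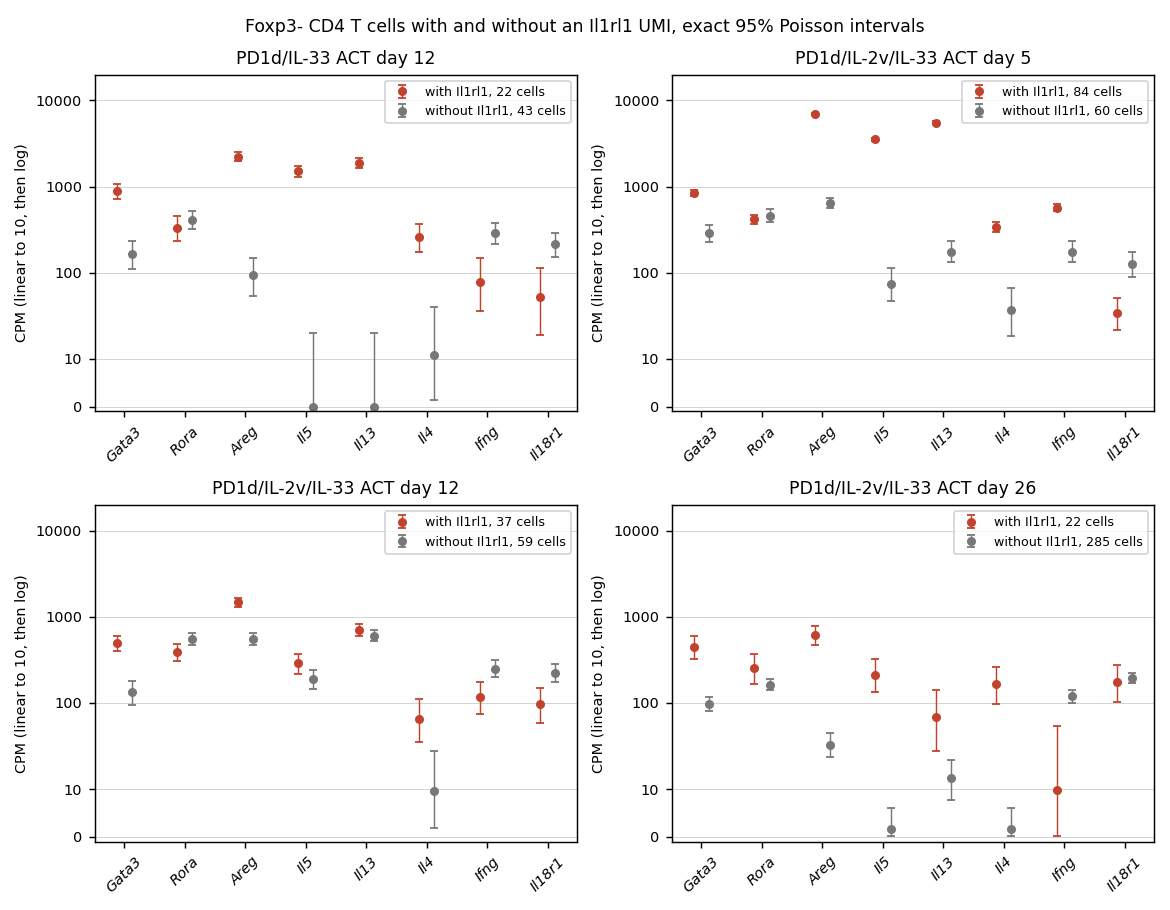
CPM (y axis, linear to 10 and logarithmic above) of 8 genes (x axis) in Foxp3- CD4 T cells with and without an Il1rl1 UMI in IL-33 ACT at day 12 and orthogonal ACT at days 5, 12 and 26, with exact 95% Poisson intervals and the number of cells in each legend. Gata3 and Areg lie higher with Il1rl1 in all 4 panels, and Il18r1 lies lower.

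The cells with Il1rl1 in the other gates had different company. Pooled over all libraries, the 85 Foxp3+ CD4 T cells with an Il1rl1 UMI had 1294 CPM of Areg, against 843 CPM in the 320 without. Klrg1, a receptor of differentiated regulatory T cells, was at 442 against 407 CPM. Il5 and Il13 were at 1.27 and 3.82 CPM with Il1rl1. The pool mixes libraries, so these pairs are not compared within a library. The 96 CD8 T cells with Il1rl1 were deep cells, with a median of 11534.5 UMIs against 6040. In orthogonal ACT at day 5, the 21 such cells had 390.4 CPM of Il5, with 102 of 114 UMIs in 1 cell, and 1182 CPM of Il13, with 281 of 345 UMIs in 1 cell.

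Many Il1rl1 UMIs lay outside the gates. Of 2859 UMIs, 36.4% were in Foxp3- CD4 T cells, 10.1% in Foxp3+ CD4 T cells, 6.47% in CD8 T cells and 25.3% in ungated cells with at least 2 CD3 UMIs and none of Cd4, Cd8a or Cd8b1. In this last set Il1rl1 was at 6.30 and 13.1 CPM after untransduced ACT at days 5 and 12, 5.20 CPM after IL-2v ACT, 110 CPM after IL-33 ACT, 298, 212 and 112 CPM after orthogonal ACT at days 5, 12 and 26, and 0 in 40 cells of non-treated tumors. The 4 libraries with IL-33 all lay above the other 4, day 26 included. Cd4 transcripts are easily missed in single cells, so how many of these 1284 cells are CD4 T cells was not tested. A further 8.22% of the UMIs were in 51 cells without any CD3 UMI. No gate was set for type 2 innate lymphoid cells or for mast cells and basophils. Over all ungated cells, Il17rb of the first list had 119 UMIs, and Mcpt8 and Gata2 of the second had 136 and 82. Which kinds of cell the ungated cells with Il1rl1 are was not tested.

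Around the receptors, a list of 47 further genes of the family was followed, of which 43 were matched by symbol in the gene list and the other 4 (Il36a, Il36b, Il36g and Il36rn) were not analysed here. The list holds other ligands, decoys, kinases, NF-κB subunits, the inflammasome and target cytokines. In CD8 T cells, genes with at least 50 UMIs gave 5 of 30 past 2-fold in IL-33 against IL-2v ACT (1 higher and 4 lower, 3.15% of all genes tested), 5 of 33 in orthogonal against IL-2v ACT (2 higher and 3 lower, 2.14% of all), 3 of 32 in orthogonal against IL-33 ACT (3 higher, 1.75% of all), 5 of 33 in orthogonal against untransduced ACT at day 5 (5 higher, 3.13% of all), 4 of 34 at day 12 against day 5 (4 lower, 0.698% of all), 4 of 34 at day 26 against day 12 (1 higher and 3 lower, 3.13% of all) and 2 of 30 in untransduced ACT against non-treated tumors (1 higher and 1 lower, 2.02% of all). The medians of the list were -0.10, -0.16, 0.02, 0.06, -0.28, -0.04 and -0.04 in that order, against -0.04, -0.10, -0.08, -0.09, -0.13, 0.12 and 0.02 for all genes tested.

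Many of the list genes past 2-fold in CD8 T cells were cytokines. At day 5, orthogonal ACT was above untransduced ACT in Ifng (1226 against 183 CPM, log2 ratio 2.68), Il13 (122 against 0.202 CPM, 3.70), Nfkb1 (236 against 85.4 CPM, 1.36) and Tab2, an adaptor of the TAK1 kinase (116 against 46.0 CPM, 1.17), and at least 72.6-fold higher in Il5, which had 0 UMIs after untransduced ACT. The Il5 and Il13 UMIs of that library came from 7 and 21 of 491 CD8 T cells. A large part of each was in a single cell, as given above for the CD8 T cells with Il1rl1. At day 12, Ifng was lower than after IL-2v ACT both in IL-33 ACT, at -1.81, and in orthogonal ACT, at -1.44, while Rora, a nuclear receptor of innate-like lymphocytes, was higher, at 1.57 and 1.62. Il4, with 0 UMIs in both, was at least 9.55-fold and at least 29.9-fold lower, and Csf2 was lower in IL-33 ACT, at -1.94. Il1b was lower in both too, at -2.25 and -1.24, and neutrophil markers summed to 431 CPM in the CD8 gate of IL-2v ACT against 0 to 42.5 CPM in the other libraries, and their part in this Il1b was not tested. Nfkb1 was higher in orthogonal than in IL-2v ACT by 1.10, and at day 26 lower than at day 12 by -1.46, when Casp1, the protease that matures IL-18, was higher by 1.42 and Irak3 and Csf2 were lower, at -1.13 and -1.07.

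Cytokines were also among the calls of the other 3 comparisons in CD8 T cells. From day 5 to day 12 of orthogonal ACT, Ifng fell from 1226 to 136 CPM (-3.08), and Il13, Il5 and Nfkbiz were lower at -3.59, -2.41 and -1.14. The Il13 and Il5 levels of day 5 rest on the few cells given above. Orthogonal ACT at day 12 was above IL-33 ACT in Il1b, Irak3, an inhibitory kinase of the pathway, and Csf2, by 1.01, 1.16 and 1.18. Untransduced ACT at day 5 was below non-treated tumors in Ifng (183 against 448 CPM, -1.25) and at least 7.40-fold higher in Areg, which had 0 UMIs in the 76 CD8 T cells of non-treated tumors.

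Foxp3- CD4 T cells had larger shares of the list past 2-fold than CD8 T cells in the comparisons with enough cells. The shares of all genes were larger in this gate as well, so the higher counts are not particular to the list. Against untransduced ACT at day 5, 12 of 25 were past 2-fold in orthogonal ACT (11 higher and 1 lower, 13.8% of all genes tested). Il13 was at 3888 against 10.7 CPM (log2 ratio 7.55), Areg at 5027 against 66.6 CPM (6.04), Il4 at 245 against 6.45 CPM (3.95), Nlrp3, the inflammasome sensor, at 84.7 against 2.15 CPM (2.96), Gata3 at 678 against 101 CPM (2.63) and Nfkb1 at 563 against 135 CPM (1.98), and Il5 was at least 387-fold higher. Tab2, Csf2, Ifng and Rora were higher by 1.79, 1.72, 1.02 and 1.01. Sigirr, an inhibitory receptor of the family, was the 1 gene lower, at -1.05 (23.8 against 60.2 CPM). From day 5 to 12, 7 of 27 were past 2-fold, all lower (3.62% of all), and from day 12 to 26, 9 of 24, all lower (7.74% of all), with Il13 at -2.57 and -4.56, Il5 at -3.39 and -3.06 and Areg at -2.46 and -3.36. Gata3 was lower at both steps too, at -1.28 and -1.07. These 4 genes had the same order of days as Il1rl1. Nlrp3, Il4 and Ifng were lower at day 12 only, at -2.77, -2.63 and -1.14, and Nfkb1, Csf2, Rora, Rel and Nfkbiz at day 26, at -1.88, -1.98, -1.47, -1.20 and -1.04. Orthogonal and IL-33 ACT at day 12 differed past 2-fold in 2 of 16 (2.57% of all), with Csf2 higher by 2.76 and Il5 lower by -1.32.

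In myeloid cells, 5 of 27 list genes were past 2-fold between orthogonal and IL-2v ACT at day 12 (7.33% of all genes tested). Il1a was at 89.2 against 307 CPM (-1.67) and Il18 at 9.39 against 30.9 CPM (-1.08). Irak3 was lower by -1.04, and Nfkb1 and Nlrp3 were higher by 1.52 and 1.36. Of the comparisons with at least 50 cells in both libraries, the others gave 2 of 30 against untransduced ACT at day 5 (7.23% of all), 2 of 29 for day 12 against day 5 (2.17% of all) and 6 of 28 for day 26 against day 12 (5.06% of all), where Nlrp3, Il1a, Tnfaip3, Nfkb1 and Rel were lower, at -2.11, -2.10, -1.49, -1.33 and -1.19, and Il18 higher by 1.10. Those against untransduced ACT were Tifa and Gsdmd, at -1.02 and -1.01, a share close to that of all genes, and those of day 12 against day 5 were Nfkbiz and Tnfaip3, at -1.13 and -1.28. The 3 comparisons with under 50 cells in a library rest on few UMIs. IL-33 against IL-2v ACT, with 28 and 273 cells, gave 9 of 27 (2 higher and 7 lower, 13.1% of all), with Il1b at 2381 against 6850 CPM (-1.52), Il1a at 0 UMIs and so at least 17.2-fold lower, Tifa, Irak3, Tnfaip3, Nfkbia and Traf6 lower at -1.45, -1.43, -1.38, -1.08 and -1.04, and Nfkb1 and Tab2 higher by 1.12 and 1.08. Orthogonal against IL-33 ACT gave 4 of 18, all higher (7.14% of all), with Il1a at least 5.01-fold higher and Nlrp3, Tnfaip3 and Nfkbia higher by 2.07, 1.93 and 1.11. Untransduced ACT against non-treated tumors, with 264 and 21 cells, gave 5 of 28, all higher (8.15% of all), with Il1a, Il18bp, Areg, Irak3 and Tab2 at 2.69, 1.61, 1.54, 1.15 and 1.14. Il1b was the most abundant ligand of the family in myeloid cells, at 2381 to 8384 CPM in 7 libraries, and Il18bp, the secreted binder of IL-18, was at 10.7 to 56.2 CPM.

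Over the 41 sums of a gate and a library with at least 20 cells, the genes whose log2(CPM + 10) followed a member most closely, among 10231 with at least 200 UMIs, were Prickle1, Areg and Cd4 for Il1rl1 (Pearson r 0.92, 0.89 and 0.88), Skap1, Rinl and Sh2d1a for Il18r1 (0.96, 0.96 and 0.96), and Fasl, Gm29243 and Fhl2 for Il18rap (0.89, 0.88 and 0.87). For Il1r2 they were Gm5424, Ebi3 and Tank (0.89, 0.86 and 0.85), for Il1rn Lrrc25, Cd14 and Nod2 (0.94, 0.92 and 0.92), for Myd88 AI607873, Il13ra1 and Capza2 (0.93, 0.92 and 0.91), and for Il1rap G6pdx, Nsf and Slc35f6 (0.70, 0.68 and 0.67). Cd4 sets the CD4 T gates and is excluded from the CD8 T gate. Its likeness to a gene counted mainly in the CD4 T gates was thus built in by the gating. The gates of 1 library share its mice, day and condition, so these are descriptions of likeness across cell types. The weakest was that of Il1rap, whose counts are low.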

How the data were processed

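The authors deposited 1 matrix of raw UMI counts per gene and barcode, with 27998 genes, for 8 libraries, 1 per condition and day. Their processing notes name bcl2fastq, Cell Ranger 2.2.0 and the genome GRCm38, and the counts were not normalized. Cells with 500 to 6000 genes, 2000 to 40000 UMIs, 5 to 60% ribosomal UMIs (113 genes) and under 10% mitochondrial UMIs (13 genes) were kept. No doublet caller was run, and the 12 cells that met more than 1 gate were set apart.

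UMIs were summed per gate and library and divided by the summed total to give CPM. Intervals are exact 95% Poisson intervals, shares of cells carry exact Clopper-Pearson intervals in the tables, a count of 0 was taken as up to 3 counts for a bound, and all cover counting error only, since UMIs cluster in few cells. Ratios between libraries are of CPM + 10, a log2 ratio of at least 1 or at most -1 was called, and there is no test because each condition is 1 library. Members needed 10 UMIs and 50 cells, list genes 50 UMIs. Gates were compared within libraries by a two-sided exact sign-flip permutation test over 6 or more libraries with at least 20 cells in each gate, with Benjamini-Hochberg adjustment over the 54 tests at 0.05. Thinning to 2000 UMIs used 1 seed.

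The text names the 9 members, the list genes past 2-fold, and the 3 genes most correlated with each member. The members, gates and lists were chosen with earlier results of these data known. Alternatives were no cell filter, stricter gates, leaving out the 5% deepest cells or libraries, equal weight per cell, a pseudocount of 1 CPM, thinned shares, untransduced ACT at day 12 as reference and TMM factors (edgeR 4.0.16, R 4.3.3). The minimum of 10 cells and the list in Foxp3- CD4 T cells were chosen after seeing the data. So were the split of cells by Il1rl1, the sets of ungated cells, and the subsets of CD8 T cells, myeloid cells and DCs. Scripts ran in Python 3.11.15 with numpy 2.4.6, scipy 1.17.1 and pandas 2.3.3 and were tested on simulated data.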

Additional observations from a re-analysis of the deposited data

Results flagged for a closer look

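Signal of the members was also found in the 3148 cells that met no gate and enter no comparison. Il1rl1 in these cells was at 117 CPM after IL-33 ACT and 96.8, 129 and 68.6 CPM after orthogonal ACT at days 5, 12 and 26, against 5.22 and 21.0 CPM after untransduced ACT at days 5 and 12, 10.1 CPM after IL-2v ACT (35 UMIs in 461 cells) and 2.49 CPM in non-treated tumors. Il18rap was at 134 CPM in ungated cells of orthogonal ACT at day 5, and Il1r2 was at 134 CPM in those of orthogonal ACT at day 12. These levels lie above those of the same cells in untransduced ACT and non-treated tumors, and the difference was not tested.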

How the results depend on the processing

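The 0 of 54 tests that passed stayed at 0 under every alternative except a minimum of 50 cells, where 3 of 9 passed, and of 10 cells, where 50 of 135 passed, and leaving out each library in turn gave 0 to 0. With a pseudocount of 1 CPM, 28 of 119 member values were past 2-fold in place of 16, when the share of all gene values in the same comparisons was 14.5% in place of 3.86%. Of the values between libraries and counts that answer a comparison, 241 stayed within their spread, 45 moved past it and 6 that were past 2-fold changed sign. A further 17 that were under 2-fold changed sign, 3 of them with an interval that excluded 0. In the lists below, comparisons are named by the library first and the one it was set against second, and the cause of each shift was not tested. As a thinned share of cells, Il18r1 in CD8 T cells was 0.26 for IL-33 against IL-2v, -0.19 for orthogonal against IL-2v and -0.37 for day 5 against untransduced ACT. With equal weight per cell it was -0.24 for orthogonal against IL-2v and 0.20 for day 26 against day 12, which TMM factors put at 0.25. Il18rap was 0.14 and -0.59 for the same with equal weight, and -0.057 for day 5 against untransduced, -0.58 for day 26 against day 12 and 0.94 for untransduced against non-treated as thinned shares. Il1rl1 in Foxp3+ CD4 T cells, under stricter gates that left 4 to 58 cells, was 1.40 for IL-33 and 0.85 for orthogonal against IL-2v, -0.87 for day 12 against day 5 (-0.97 with equal weight), and reversed to 0.36 for day 26 against day 12 and -0.023 for untransduced against non-treated. Its thinned shares gave 1.36, 0.66, 1.01 for day 5 against untransduced, and reversed to 0.36 and -0.25 for the last 2. Il1rn in myeloid cells gave thinned values of -1.19 for IL-33 and 0.41 for orthogonal against IL-2v, 0.28 for day 5 against untransduced, -0.14 for day 12 against day 5, -0.84 for day 26 against day 12 and 0.84 for untransduced against non-treated. Stricter gates gave -0.90, -0.97 and 0.12 for orthogonal against IL-2v, day 12 against 5 and day 26 against 12, equal weight gave -0.015, -0.29 and -0.67 and, for day 5 against untransduced, -0.27, and no cell filter gave 1.58 for untransduced against non-treated. Against untransduced ACT at day 12 (13 cells), Il1rn was -3.13 for IL-33 and -1.72 for orthogonal, and Il1r2 reversed to 0.88 and 0.80. Il1r2 was -1.07 and -1.26 against IL-2v under stricter gates, -1.03 for day 5 against untransduced with equal weight, and as thinned shares -1.002 for IL-33 against IL-2v, -0.75 for day 5 against untransduced, -0.95 for day 12 against day 5, 1.59 for day 26 against day 12 and 0.56 for untransduced against non-treated. Il33 and Il1r1, with 11 and 30 UMIs in all, allow no comparison of libraries at this depth.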
